A study of Rattus norvegicus with 6 samples.

Results

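Resident macrophage and leukocyte genes were examined in renal cortex from male rats of the Sprague-Dawley Crl:CD(SD) stock. The 10 genes were Cd68, Cd74, Csf1r, C1qa, C1qb, C1qc, Cd163, Lyz2, Ptprc and Mrc1, out of 15284 gene symbols on the array. They were chosen by name and not by a rule on their values, but with earlier results of these data known. Each gene was found through the transcript accession printed with its probes, which gave 23 probes, and 9 of the 10 genes had a probe bright enough to test. The animals were 5 weeks old at purchase and were kept on a basal diet. A group of 3 rats was given anthraquinone, a tricyclic quinone, at 1000 mg/kg/day for 4 weeks, and a group of 3 rats was given corn oil for the same 4 weeks. A 1-colour Agilent array was run per animal, and the series describes the 3 samples of a group as biological replicates.

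Macrophages settle in the kidney between the tubules and around the vessels, where they take up debris, make complement and present antigen. Their survival depends on the receptor encoded by Csf1r, which binds the growth factors encoded by Csf1 and Il34. C1qa, C1qb and C1qc encode the chains of C1q, the recognition protein that starts the classical complement pathway and is made largely by tissue macrophages. Cd74 encodes the invariant chain that guides MHC class II molecules to the compartment where peptide is loaded. Cd68 encodes a lysosomal glycoprotein of macrophages, Lyz2 encodes lysozyme, Cd163 encodes the scavenger receptor for haemoglobin bound to haptoglobin, Mrc1 encodes the mannose receptor, and Ptprc encodes CD45, the phosphatase found on nearly all nucleated blood cells. In rat kidney, MHC class II molecules are also made by cells other than leukocytes.

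The sequences before the starts of C1qa, C1qb, Csf1r and Lyz2 are given for 4 of the 5 members with the largest differences in size. C1qc belongs with them but had no entry in the promoter table used. C1qb, C1qc and C1qa lie next to each other in that order on chromosome 5 of the rat RefSeq assembly GRCr8. The 250 bases are written 5′ to 3′ on the strand of the gene, and capitals mark GGAAGT or its reverse complement ACTTCC, the core bound by PU.1, the macrophage transcription factor encoded by Spi1, and by related ETS factors.
C1qa promoter, GRCr8 chr5:154419934-154420183, minus strand: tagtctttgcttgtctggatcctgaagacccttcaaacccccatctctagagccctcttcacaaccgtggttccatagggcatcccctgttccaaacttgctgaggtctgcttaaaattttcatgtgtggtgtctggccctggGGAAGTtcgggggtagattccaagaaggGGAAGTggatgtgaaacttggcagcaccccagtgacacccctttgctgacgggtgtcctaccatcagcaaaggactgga
C1qb promoter, GRCr8 chr5:154407828-154408077, minus strand: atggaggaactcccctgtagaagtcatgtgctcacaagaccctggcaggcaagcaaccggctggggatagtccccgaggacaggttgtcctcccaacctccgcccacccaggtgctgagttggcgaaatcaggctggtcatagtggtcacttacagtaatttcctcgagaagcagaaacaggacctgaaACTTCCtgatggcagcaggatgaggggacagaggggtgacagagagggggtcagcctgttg
Csf1r promoter, GRCr8 chr18:56834129-56834378, plus strand: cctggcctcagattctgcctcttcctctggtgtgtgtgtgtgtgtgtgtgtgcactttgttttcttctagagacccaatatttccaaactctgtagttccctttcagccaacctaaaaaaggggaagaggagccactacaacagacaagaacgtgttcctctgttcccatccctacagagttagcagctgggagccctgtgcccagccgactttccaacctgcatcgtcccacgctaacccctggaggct
Lyz2 promoter, GRCr8 chr7:54798012-54798261, minus strand: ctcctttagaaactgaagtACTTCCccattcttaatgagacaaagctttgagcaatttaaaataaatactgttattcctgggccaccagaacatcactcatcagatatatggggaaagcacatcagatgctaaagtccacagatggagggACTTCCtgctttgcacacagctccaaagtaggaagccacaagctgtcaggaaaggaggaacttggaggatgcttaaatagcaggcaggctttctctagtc
This 6-base form occurred 2 times in the C1qa window, 1 time in the C1qb window, 2 times in the Lyz2 window and 0 times in the Csf1r window. It was present in 6 of the 9 genes with a promoter in the RefSeq table, against 19.2% of all 33469 promoters in the same 250-base window. A match is a run of letters and not a measured binding site.

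Values are log2 of the processed spot signal minus the log2 of that array's 75th percentile, so 0 is the 75th percentile of the array and 1 unit is a doubling. Differences are anthraquinone minus corn oil, and p-values are from limma with Benjamini-Hochberg adjustment over all 32663 tested entries at 0.05. Probes well above background made up 64.2 to 66.1% of those on the anthraquinone arrays and 68.7 to 70.7% of those on the corn oil arrays. Corn oil replicate 1 was alone on its slide and scan, and within the other slide the anthraquinone arrays lay in row 2 and the corn oil arrays in row 1, so that row and group cannot be told apart there. All 12 markers of cortical nephron segments, such as the phosphate transporter gene Slc34a1, were measured. Over all entries 9 passed, 5 higher and 4 lower, which is 0.0276% of those tested (0.0153% higher and 0.0122% lower). Leaving out anthraquinone replicate 2 gave a count of 1, and leaving out corn oil replicate 1, 2 or 3 gave 2, 5 or 32. The precision is limited by the number of arrays, and in whole cortex fewer cells of a type and less RNA per cell cannot be told apart.

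None of the macrophage and antigen presentation genes passed, 0 of 9 in limma, and the smallest adjusted p was 0.241. At an unadjusted p under 0.05 there were 2 of 9, C1qa higher and Csf1r lower, against 17.1% of all entries. Groups were fully separate in 4 of 9, the 3 C1q genes higher and Csf1r lower, against 25.2% of all entries (15% higher and 10.2% lower). The median difference over the 9 genes was 0.10, with 6 positive and 3 negative values, against a median of 0.007 over all entries, of which 51.6% were positive and 48.4% negative. It was 0.006 when corn oil replicate 1 was left out, 0.03 for anthraquinone replicate 2 and 0.18 for corn oil replicate 3. All 9 differences lay between -0.28 and 0.39, within the 5th to 95th percentile of all entries (-0.48 to 0.38) except for C1qa.

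**Figure D1:**
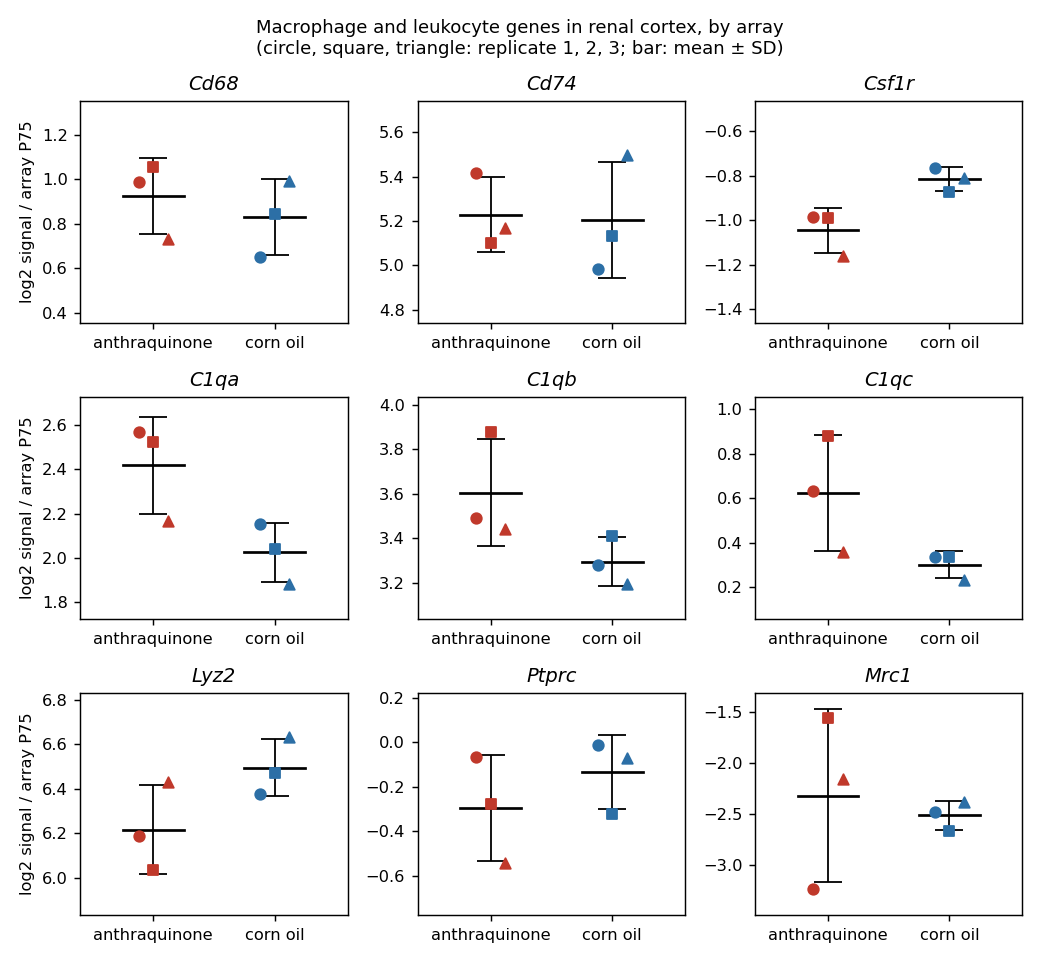
Log2 signal relative to the array's 75th percentile for the 9 measured genes, 1 panel per gene, with anthraquinone arrays left of corn oil arrays. Points are single animals, horizontal bars are means and whiskers are SDs of 3 animals. The C1q panels and the Csf1r panel are the 4 in which the groups do not overlap, and Mrc1 has the widest spread, from -3.23 to -1.56 with anthraquinone.

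The C1q genes were the only members whose values all lay above those of corn oil. C1qa read 2.57, 2.52 and 2.17 in anthraquinone replicates 1, 2 and 3, against 2.15, 2.04 and 1.89 in corn oil replicates 1, 2 and 3. C1qb read 3.49, 3.88 and 3.44 with anthraquinone, against 3.28, 3.41 and 3.19 with corn oil. C1qc read 0.63, 0.88 and 0.36 with anthraquinone, against 0.34, 0.34 and 0.23 with corn oil. Anthraquinone replicate 3 was the lowest treated array for each chain and came within 0.03 of the highest corn oil array for all 3.
The difference was 0.39 ± 0.14 for C1qa (SE, 1.31-fold, limma adjusted p = 0.241). It was 0.31 ± 0.14 for C1qb (SE, 1.24-fold, limma adjusted p = 0.318) and 0.32 ± 0.14 for C1qc (SE, 1.25-fold, limma adjusted p = 0.310). The 95% intervals were 0.06 to 0.72 for C1qa, -0.03 to 0.64 for C1qb and -0.02 to 0.66 for C1qc, so a halving of any chain lay outside them, as did a doubling. Second probes gave 0.31 for C1qa, 0.34 for C1qb and 0.23 for C1qc, and of these the C1qb probe alone kept the groups apart. Without anthraquinone replicate 2 the values of C1qb and C1qc were 0.17 and 0.19.

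Among the other complement genes, 21 of 25 with a probe were measured and 0 passed in limma, with 1 higher and 2 lower at an unadjusted p under 0.05 (by background 9.47% higher and 7.65% lower). Their median was -0.10, with 6 positive and 15 negative values. C2, which encodes the protease that joins C4 in the classical pathway, read -0.94, -1.05 and -0.81 with anthraquinone, against -1.49, -1.19 and -1.14 with corn oil, a difference of 0.34 ± 0.12 (SE, limma adjusted p = 0.251). C3, the central component of all pathways, read 0.92, -0.04 and -0.10 with anthraquinone, against 0.64, 0.76 and 0.63 with corn oil. Its groups overlapped through anthraquinone replicate 1, and the difference was -0.42 ± 0.27 (SE), or -0.75 without that animal (limma adjusted p = 0.0858). The terminal pathway gene C8b and the lectin pathway protease gene Masp2 had differences of -0.50 ± 0.13 and -0.42 ± 0.15 (SE), both with groups that did not overlap, and -0.28 and -0.15 with the normexp background correction. C8b is best known as a liver product, and the other Masp2 probes stayed dim on all 6 arrays.

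Csf1r was the 1 member with all anthraquinone values below those of corn oil. It read -0.99, -0.99 and -1.16 with anthraquinone, against -0.76, -0.87 and -0.81 with corn oil. The difference was -0.23 ± 0.08 (SE, limma adjusted p = 0.250), with a 95% interval of -0.43 to -0.03. A second Csf1r probe gave -0.04 ± 0.12 (SE) with overlapping groups, and with the mean of both probes the value was -0.14.
Il34, a Csf1r ligand that tubule cells make in mice, read 4.16, 3.94 and 4.46 with anthraquinone, against 4.68, 4.61 and 4.63 with corn oil. The groups did not overlap, and the difference was -0.45 ± 0.14 (SE, limma adjusted p = 0.216). It ranged from -0.59 to -0.33 over 16 alternatives and passed in none of them. Csf1, the other ligand gene, read -0.62, -1.02 and -0.99 with anthraquinone, against -0.60, -0.66 and -0.42 with corn oil, a difference of -0.31 ± 0.14 (SE, limma adjusted p = 0.309), and a second probe gave -0.27 without overlap.
The monocyte attractant gene Ccl2 had the largest difference in the list of growth factors and recruitment genes, at -1.09 ± 0.18 (SE, limma adjusted p = 0.138). It read -1.46, -2.07 and -1.82 with anthraquinone, against -0.58, -0.91 and -0.59 with corn oil, with no overlap. Csf2ra, a receptor subunit gene for a granulocyte and macrophage growth factor, had a difference of 0.10 ± 0.07 (SE) without overlap. Of the 29 genes in that list, Csf1r among them, 19 were measured and 0 passed in limma. At an unadjusted p under 0.05, 4 were lower and 0 higher, against 7.65% and 9.47% of all entries. The 4 were Ccl2, Il34, Csf1r and Csf3r. Csf3r was measured through the corn oil arrays, with 2 of 3 anthraquinone arrays well above background. The median of the 19 was -0.17, and the receptor genes Ccr1 and Ccr2 and the cytokine genes Il6 and Il10 were among 7 with a probe but too dim to test.

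Cd74 did not separate the groups. It read 5.42, 5.10 and 5.17 with anthraquinone, against 4.99, 5.13 and 5.50 with corn oil, and the spread within corn oil was wider than the difference of 0.02 ± 0.16 (SE, limma adjusted p = 0.955). Its 95% interval was -0.36 to 0.41, and its sign turned in 6 of 16 alternatives, among them quantile normalization (-0.09). The MHC class II alpha chain gene RT1-Da likewise read 3.18, 2.83 and 2.83 with anthraquinone, against 2.80, 2.82 and 3.09 with corn oil, a difference of 0.04 ± 0.14 (SE, limma adjusted p = 0.900) whose sign turned in 5 alternatives. Both genes were highest in anthraquinone replicate 1 and corn oil replicate 3 within their groups. The class II transactivator gene Ciita had a difference of -0.13 ± 0.19 (SE), which lay between -0.32 and -0.03 with single arrays left out, and the RT1-Ba probe did not exceed background by the scanner's criterion anywhere.
Of the 22 measured genes of class II presentation 0 passed in limma, and 15 values were positive and 7 negative, with a median of 0.13. After quantile normalization the split was 12 and 10 with a median of 0.03. Groups did not overlap for 7 genes higher and 2 lower, against 15% and 10.2% of all entries. The largest of the higher ones belong to peptide production and loading. Ifi30, a lysosomal thiol reductase gene, read 5.38, 5.40 and 5.39 with anthraquinone, against 4.93, 5.06 and 5.12 with corn oil, a difference of 0.35 ± 0.08 (SE, limma adjusted p = 0.188). RT1-DMa, which encodes a chain of the peptide-exchange catalyst, read 2.12, 2.25 and 1.93 with anthraquinone, against 1.77, 1.70 and 1.78 with corn oil, and its 2 probes gave 0.35 and 0.36. The cathepsin gene Ctsl had a difference of 0.33 ± 0.12 (SE), which was 0.13 after quantile normalization and 0.15 with normexp. Lower without overlap were the costimulatory gene Cd86, at -0.34 ± 0.09 (SE, -0.16 with normexp), and Rfxap, a subunit gene of the class II promoter-binding complex, at -0.19 ± 0.08 (SE).

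Of 29 measured genes of class I presentation 0 passed in limma. At an unadjusted p under 0.05, 1 was higher and 1 lower, against 9.47% and 7.65% of all entries. Groups did not overlap for 2 higher and 3 lower, against 15% and 10.2% of all entries. The median was 0.02 with 16 positive and 13 negative values. It was -0.04 with 11 positive and 18 negative after quantile normalization, and -0.05 without corn oil replicate 1. The class I light chain gene B2m read 7.57, 7.57 and 7.54 with anthraquinone, against 7.33, 7.30 and 7.48 with corn oil, a difference of 0.19 ± 0.08 (SE) that was 0.006 after quantile normalization and -0.02 with normexp and ranged from 0.03 to 0.24 on its other probes. The peptide transporter gene Tap1 had a difference of -0.27 ± 0.09 (SE), and the loading chaperone gene Pdia3 and the lipid-presenting gene Cd1d1 had -0.19 and -0.09, all without overlap. The 4 probes of the class I gene RT1-CE5 disagreed, at 0.09 on the brightest and -0.34, -0.40 and -0.21 on the others. RT1 class I genes are close copies of each other, so their probes are uncertain as to gene.

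The lysosomal genes Lyz2 and Cd68 differed in sign. Lyz2 read 6.19, 6.03 and 6.43 with anthraquinone, against 6.38, 6.47 and 6.63 with corn oil, and only anthraquinone replicate 3 reached into the corn oil range. The difference was -0.28 ± 0.13 (SE, limma adjusted p = 0.328), with a 95% interval of -0.59 to 0.03. A second probe gave -0.32, quantile normalization gave -0.45, and leaving out anthraquinone replicate 2 gave -0.19. Cd68 read 0.99, 1.06 and 0.73 with anthraquinone, against 0.65, 0.85 and 0.99 with corn oil, with full overlap. Its difference was 0.10 ± 0.13 (SE, limma adjusted p = 0.740), its second probe gave 0.07, and the value was 0.006 without corn oil replicate 1.

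Ptprc, the general leukocyte gene, read -0.07, -0.28 and -0.54 with anthraquinone, against -0.01, -0.33 and -0.07 with corn oil. The difference was -0.16 ± 0.15 (SE, limma adjusted p = 0.616), with a 95% interval of -0.52 to 0.20, and -0.04 without anthraquinone replicate 3. The 5 Ptprc probes ranged from -0.30 to 0.44 and all overlapped between groups. The highest of these, on a dim probe, came from anthraquinone replicate 1, which read -2.16 there against -3.92 and -4.32 in the other treated animals.
The wider set of leukocyte genes, Ptprc included, gave 5 positive and 12 negative values among 17 measured, with a median of -0.15 and 0 passing in limma. The median was -0.02 without anthraquinone replicate 3. Itgb2, the integrin beta chain gene of leukocytes, read -0.88, -1.11 and -1.16 with anthraquinone, against -0.55, -0.58 and -0.56 with corn oil, a difference of -0.49 ± 0.09 (SE, limma adjusted p = 0.165). It passed in 1 of 16 alternatives, the one without a filter on dim probes. Cd52, which encodes a small surface glycoprotein of lymphocytes, read -0.05, -0.44 and -1.29 with anthraquinone, against -2.05, -2.27 and -1.56 with corn oil. Its difference of 1.37 ± 0.34 (SE, limma adjusted p = 0.195) was the largest of the leukocyte list and opposite in sign to its median.

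Mrc1 was the least settled of the members. It read -3.23, -1.56 and -2.16 with anthraquinone, against -2.48, -2.67 and -2.39 with corn oil, so that the treated animals lay on both sides of all the controls. The SD was 0.85 in anthraquinone and 0.14 in corn oil (n = 3 each). The difference was 0.19 ± 0.40 (SE, limma adjusted p = 0.843), or 0.65 without anthraquinone replicate 1 and -0.19 without anthraquinone replicate 2. A second, dimmer probe followed the same order in treated animals, at -6.40, -4.52 and -5.61, but was well above background on 1 anthraquinone and 2 corn oil arrays only.
Cd163 was not measured. Of its 3 probes, 2 stayed dim on all 6 arrays and the other was well above background on 1 corn oil array only. Its dim probes differed by 0.58 between the groups, which is also the median difference, 0.58, of all 15692 probes that stayed dim throughout, so these values are no level of Cd163.
Hmox1, which encodes the haem-degrading enzyme that acts after Cd163 uptake, read 0.81, 0.52 and 0.61 with anthraquinone, against -1.78, -1.30 and -1.40 with corn oil. It rose by 2.14 ± 0.15 (SE, limma adjusted p = 0.0311) and was the 1 gene in the lists described here that passed, but its adjusted p was 0.0529 to 0.126 with any 1 array left out and 0.191 with a replicate block. Of the 20 measured genes in its list, which covers haemoglobin scavenging and lysosomal genes and holds Lyz2 and Mrc1 too, 15 had positive and 5 negative values, with a median of 0.11 that was -0.002 when anthraquinone replicate 2 was left out and 0.24 for replicate 1. The iron exporter gene Slc40a1 had a difference of -0.16 ± 0.08 (SE) without overlap. Other cells of the cortex also express Hmox1.

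**Figure D2:**
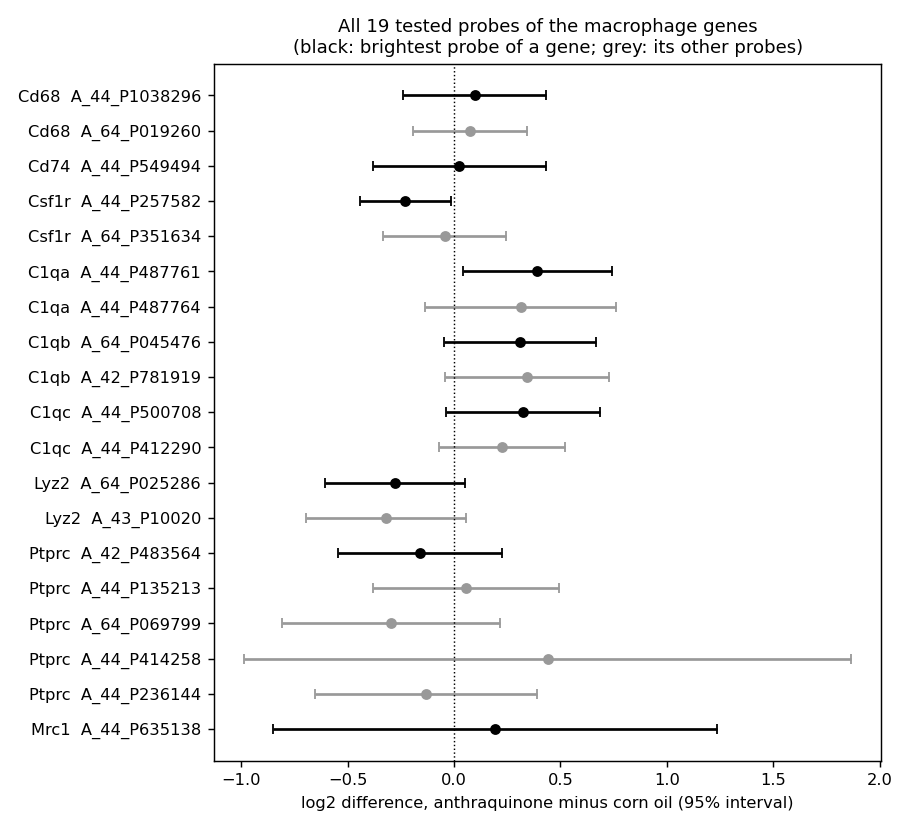
Difference in log2 signal, anthraquinone minus corn oil, with its 95% interval for each of the 19 tested probes of the 9 measured genes, in black for the brightest probe of a gene and in grey for the others, from a fit of single probes. The 6 C1q probes all lie to the right of 0 and both Lyz2 probes to its left, while the 5 Ptprc probes lie on both sides.

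Over single probes, 12 of the 19 tested values were positive and 7 negative, with a median of 0.07. Probes of 1 gene share its RNA and are not replicates of each other. The C1q probes, from 0.23 to 0.39, and the Lyz2 probes, at -0.32 and -0.28, kept the sign of their gene, and those of Ptprc did not.

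Within single arrays the chains of C1q moved together more closely than with the other members. The root mean square distance to the mean C1q profile over the 6 arrays, each gene centred on its own mean, was 0.08 for C1qa, 0.08 for C1qb and 0.03 for C1qc. It was 0.19 for Cd68 and 0.30 or more for Cd74, Csf1r, Ptprc, Lyz2 and Mrc1. The C1q genes are part of that mean, so their closeness is in part built in.
The mean of the C1q genes minus Csf1r, a quantity in which any scaling of the array cancels, was 3.21, 3.42 and 3.15 with anthraquinone, against 2.69, 2.80 and 2.58 with corn oil. It averaged 3.26 ± 0.14 with anthraquinone and 2.69 ± 0.11 with corn oil (SD, n = 3 each), without overlap. Only the brightest probe of each gene entered these values. The second Csf1r probe differed by -0.04 ± 0.12 (SE) with overlapping groups, so the separation from Csf1r holds for its brightest probe only. The mean of the C1q genes minus Lyz2 averaged -4.00 ± 0.42 with anthraquinone and -4.62 ± 0.21 with corn oil (SD, n = 3 each), and anthraquinone replicate 3 came within 0.02 of the highest control. The same quantity differed by 0.50 for Ptprc without overlap, and by 0.32 for Cd74 and 0.24 for Cd68 with overlapping groups. For Ptprc too the separation refers to the brightest probe only, and its 5 probes ranged from -0.30 to 0.44. These contrasts were chosen after the values were seen and are given without a test.

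**Figure D3:**
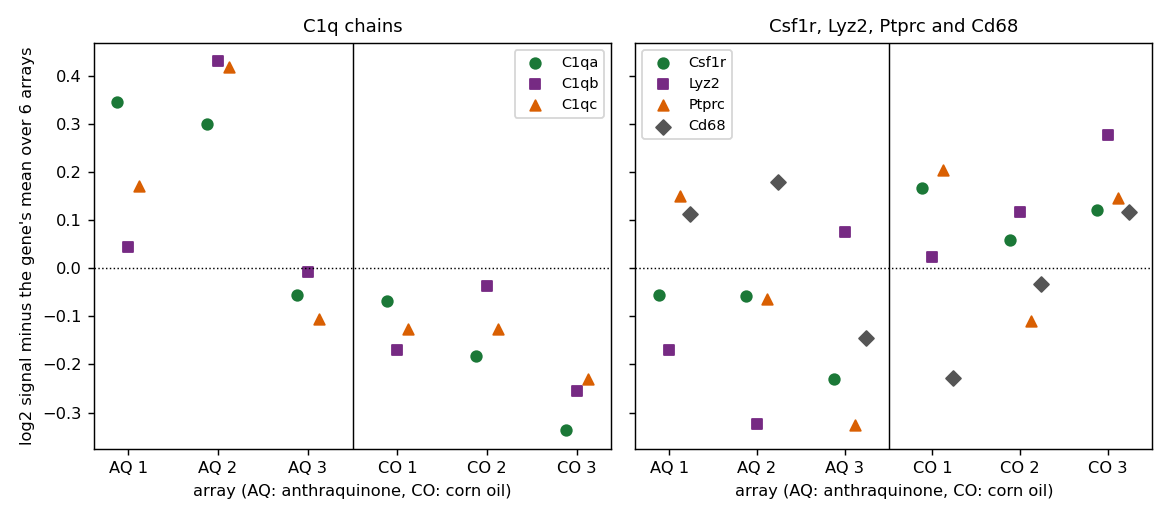
Log2 signal of single genes minus their mean over the 6 arrays, by array, with the 3 C1q genes on the left and Csf1r, Lyz2, Ptprc and Cd68 on the right. The C1q points are highest in anthraquinone replicates 1 and 2 and lowest in corn oil replicate 3, where Lyz2 is at its highest.

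By the same distance, the named genes outside the list nearest to the C1q profile were Spp2 at 0.06, and Gsta1, Mapk6, Sord and Idh2 at 0.07 each, over 6 arrays. Sord and Idh2 encode metabolic dehydrogenases and Gsta1 a glutathione transferase, and their own differences were 0.40, 0.29 and 0.38. Nearest to the mean profile of all 9 members, which is almost flat, were Zfp672, Cpq, Tmem81, Cyp2b2 and Clec2g, at 0.02 to 0.03.

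Other macrophage genes were measured for 35 of 38 with a probe, and 0 passed in limma. At an unadjusted p under 0.05 there were 5 higher and 4 lower, against 9.47% and 7.65% of all entries. Groups did not overlap for 5 higher and 3 lower, near the shares of all entries, 15% and 10.2%. The median was -0.11 with 14 positive and 21 negative values, but 0.001 with 18 positive and 17 negative when anthraquinone replicate 3 was left out. The scavenger receptor gene Marco and the complement receptor gene Vsig4 stayed dim on all 6 arrays. Adgre1, which encodes the macrophage antigen F4/80, read 0.10, -0.47 and -0.92 with anthraquinone, against -0.49, -0.02 and 0.01 with corn oil, a difference of -0.26 ± 0.28 (SE) that was -0.02 without anthraquinone replicate 3. Aif1, which encodes the macrophage protein Iba1, had a difference of -0.14 ± 0.18 (SE), and 0.02 without the same animal.
Gpnmb, a glycoprotein gene of macrophages and other lysosome-rich cells, had the largest difference of the list. It read -1.78, -1.25 and -1.61 with anthraquinone, against -2.88, -2.60 and -2.71 with corn oil, a difference of 1.19 ± 0.15 (SE, 2.27-fold, limma adjusted p = 0.107) that passed in 2 of 16 alternatives. Slc11a1, a phagosomal metal transporter gene, read -1.34, -1.17 and -1.63 with anthraquinone, against -2.05, -1.80 and -1.77 with corn oil, and Apoe, a lipid carrier gene, had a difference of 0.45 ± 0.20 (SE), or 0.27 after quantile normalization and 0.26 without corn oil replicate 2. On the lower side without overlap were Itgb2, given above, Irf8, a transcription factor gene of monocytes and dendritic cells, at -0.31 ± 0.12, and Cd4, which rat macrophages also express, at -0.28 ± 0.09 (SE). With normexp Irf8 was -0.05 and Cd4 -0.14.

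**Figure D4:**
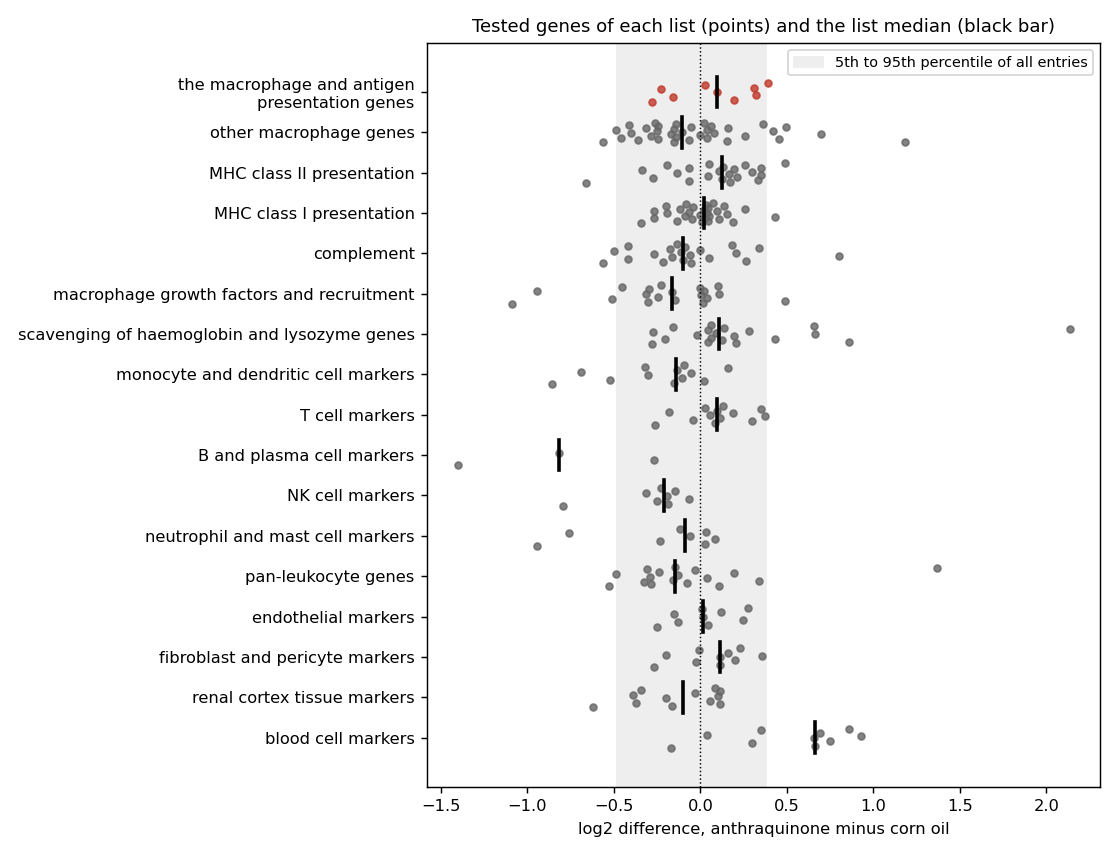
Difference in log2 signal, anthraquinone minus corn oil, for each tested gene of the macrophage and antigen presentation genes (red) and of 16 other lists (grey), with each list's median as a black bar and the 5th to 95th percentile of all entries shaded. The blood cell list has its median at 0.66 and the B and plasma cell list at -0.82, and the other medians lie between -0.21 and 0.13.

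Of the 11 B and plasma cell markers listed 6 had a probe and 3 were measured, and 0 passed in limma. Cd79b, a subunit gene of the B cell receptor, read -4.99, -6.37 and -6.78 with anthraquinone, against -4.43, -4.63 and -4.88 with corn oil, and was well above background on 1 of 3 anthraquinone arrays and 3 of 3 corn oil arrays. Its difference was -1.40 ± 0.45 (SE), or -0.39 with normexp. The 8 measured NK cell markers had negative values and a median of -0.21, which was -0.08 with 1 positive value when corn oil replicate 3 was left out. The receptor gene Klrb1c was measured through the corn oil arrays, with 1 of 3 anthraquinone arrays well above background, and its difference of -0.80 ± 0.30 (SE) was -0.19 with normexp.
The summed linear signal was 0.75 to 0.93 with anthraquinone and 0.92 to 1.22 with corn oil for the B and plasma cell markers, and 2.16 to 2.54 with anthraquinone and 2.29 to 3.30 with corn oil for the NK cell markers.
T cell markers had a median of 0.10 over 13 measured genes, which was -0.03 when corn oil replicate 2 was left out, with a summed signal of 3.38 to 4.26 with anthraquinone and 3.06 to 4.26 with corn oil. The kinase gene Zap70 had 0.30 ± 0.14 (SE) without overlap, or 0.15 when the same animal was left out, and Cd3e was too dim to test. Monocyte and dendritic cell markers had 2 positive and 10 negative values among 12, with a median of -0.14 that lay between -0.27 and -0.09 with single arrays left out. Those lower without overlap included the matrix gene Fn1, at -0.30 ± 0.09 (SE), Vcan, at -0.32 ± 0.17 (-0.19 without anthraquinone replicate 2 or corn oil replicate 1), and Batf3, at -0.09 ± 0.07, of which Fn1 and Vcan are also made by other cells. The 8 measured neutrophil and mast cell markers had 3 positive and 5 negative values. Their median was -0.09, or 0.02 without anthraquinone replicate 1. Among them the neutrophil gene S100a8 had a difference of -0.24 ± 0.25 (SE). Mmp9, a protease gene of neutrophils and other cells, had -0.76 ± 0.31 (SE), or -0.42 without corn oil replicate 2.
The 9 measured endothelial markers had 6 positive and 3 negative values and a median of 0.02, or -0.10 after quantile normalization. Groups did not overlap for 0 higher and 2 lower, against 15% and 10.2% of all entries. The lower ones were Esam, a junction gene, at -0.25 ± 0.08 and Emcn, a surface sialomucin gene, at -0.15 ± 0.07 (SE). Fibroblast and pericyte markers had a median of 0.11, or -0.004 without corn oil replicate 2, led by the growth factor receptor gene Pdgfrb at 0.36 ± 0.14 (SE). The 12 cortical segment markers had 5 positive and 7 negative values and a median of -0.10. After quantile normalization the split was 0 and 12 with a median of -0.19, and with normexp 0 and 12 with a median of -0.16. Of the 12, 0 were higher and 3 lower without overlap, against 15% and 10.2% of all entries. Those lower included Calb1, a calcium-binding protein gene of the distal tubule, at -0.62 ± 0.18 (SE). The sodium-chloride transporter gene Slc12a3 was another, at -0.37 ± 0.17 (SE, -0.18 without corn oil replicate 3).

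Of the 10 measured blood cell markers, of red cells and platelets, 0 passed in limma, but 8 were higher at an unadjusted p under 0.05 and the same number had groups that did not overlap, all higher, against 9.47% and 15% of all entries. Their summed linear signal, in multiples of the array's 75th percentile, was 1411 to 1961 with anthraquinone and 902 to 1181 with corn oil. The globin gene Hbb-bs read 6.96, 6.65 and 6.37 with anthraquinone, against 5.63, 5.67 and 5.90 with corn oil, a difference of 0.93 ± 0.17 (SE, limma adjusted p = 0.157). Hbb had 0.66 ± 0.14, Hba-a3 0.75 ± 0.20 (1.66 as the mean of its probes) and Alas2, the red cell haem synthesis gene, 0.86 ± 0.21 (SE). Globin genes are near-identical copies whose probes may share signal.
The summed signal of the 17 leukocyte genes was 41.2 to 51.8 with anthraquinone and 45.8 to 47.5 with corn oil, with full overlap. Of the platelet genes in the list, named after their values were seen, Gp9 had a difference of 0.30 ± 0.08 (SE) without overlap, Pf4 -0.17 ± 0.24 and Ppbp 0.04 ± 0.12. The part of blood or of other leukocytes in the values of the macrophage genes was not tested.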

How the data were processed

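Per the file headers, the authors' scanner files came from Feature Extraction, Agilent's image software, in version 10.7.1.1 (10.7 per the submitters' processing notes) on a 1-colour design named on rn4. The deposited processed intensity is linear, corrected for background within each array and not scaled between arrays. The deposited value table of intensity per probe matched that signal divided by each array's 75th percentile, within 0.01 log2 for 90.7 to 97.0% of probes, with column medians of 0.109 to 0.114, and no header states its scale. It is not centred by gene.

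Here log2 processed intensity minus the 75th percentile of 61657 non-control probes was used. Spots marked as outliers, 2 to 13 per array, were dropped. Testing needed a probe to be well above background on every array of 1 group or both. Probes were named through the RefSeq table of GRCr8 (27460 matched, 15284 symbols), used for names and promoters only. The brightest probe stood for a gene, and unnamed probes for themselves. Groups were compared with limma 3.58.1 (R 4.3.3), group as the only term. The test was checked on simulated data with 32649 entries, of which 50 each were changed by 0.5, 1, 2 or 3 log2 units. It recovered 72% of those changed by 1 log2 unit and 2% of those changed by 0.5. In the simulation 141 entries passed, against 9 in the data. The adjusted threshold depends on how many pass, so these shares cannot be taken as the recovery in the data. Members and lists were chosen with earlier results of these data known. Genes named were all members, a fixed set, those past the threshold, and from each list up to 3 per direction without overlap on arrays all above background, or else the largest. Some genes named by this rule are not reported here. Of 311 symbols listed, 304 were in the RefSeq table. The alternatives were other scalings, background correction, filters, probe summaries, variance models, the value table, blocks for slide and replicate number, and each array left out.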

Additional observations from a re-analysis of the deposited data

How the results depend on the processing

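Over the 16 alternatives, 0 of the members passed in limma in any, with smallest adjusted p values from 0.162 to 0.402, and members at an unadjusted p under 0.05 numbered 0 to 5. Their median difference ranged from 0.006 to 0.178. The count of all entries past the threshold, 9, was 17 with the normexp correction (on median spot signals, the ones given in the files), 81 with a trended and robust variance, 2 with the slide as a block and 6611 without the filter on dim probes, of which 6053 were higher. With each array left out it ranged from 1 to 32. With a replicate block the count was 1, and no member's call changed. Same-numbered arrays deviated together at r = 0.028, -0.059 and -0.007 across genes, so the numbers were not taken to pair the animals. Of 941 values of named genes, 18 turned sign. Cd74 was -0.087 after quantile normalization, -0.122 with normexp and -0.084 with the slide as a block, and -0.084 to 0.17 with each array left out. RT1-Da was -0.014, -0.005 and -0.01 under the same settings, and -0.074 to 0.137 with each array left out. With normexp B2m was -0.017 and Batf3 0.022, and averaging probes by gene gave -0.211 for RT1-CE5. S100a8 was 0.025 with the slide as a block. With each array left out S100a8 ranged from -0.451 to 0.025, Mrc1 from -0.185 to 0.651 and Aif1 from -0.32 to 0.022. The causes were not tested. Dim probes, Cd163 among them, carry no level that these arrays resolve.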
